A study of Mus musculus with 6 samples.

Results

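Actin and tropomyosin build the thin filament, and the genes described here are the 6 conventional actins (Actc1, Acta1, Acta2, Actg2, Actb and Actg1) and the 4 tropomyosins (Tpm1, Tpm2, Tpm3 and Tpm4) of the mouse. They were chosen by gene symbol, and all 10 were found among the 24421 genes of the deposited expression table. The table gives FPKM, fragments counted per kilobase of gene and scaled to sequencing depth. RNA came from whole hearts of C57/Bl6 mouse embryos at stage E18.5, shortly before birth, with 3 libraries labelled wildtype and 3 labelled Gas2l3 -/-. Gas2l3 encodes a protein that binds actin filaments and microtubules, and the series title links its deletion to cytokinesis of heart muscle cells. The labels do not say how the allele was made, nor whether the 3 libraries of a group are 3 embryos. The p-values therefore reflect variation among libraries, which may be technical. Where hearts are counted below, libraries are meant, and each n is a number of libraries.

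Each actin filament is a double strand of actin monomers, and tropomyosin runs along it as a coiled coil. In striated muscle, tropomyosin and the troponins open the filament to myosin when calcium rises. In other cells, cytoplasmic actins with other tropomyosins form the cortex, stress fibres and the contractile ring that divides the cell. Heart muscle is built mainly with cardiac alpha-actin (Actc1) and with the striated product of Tpm1. The fetal heart also transcribes skeletal alpha-actin (Acta1), and smooth muscle alpha-actin (Acta2) marks early heart muscle cells and vessel walls.

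The 6 actins differ little, which bears on how reads can be told apart. Their first 48 coding bases are shown because the actins differ most in amino acids at this end, with capitals marking bases that differ from Actc1 in an alignment of the whole coding sequences (gaps not drawn). Sequences are from GENCODE M21, on GRCm38.
Actc1: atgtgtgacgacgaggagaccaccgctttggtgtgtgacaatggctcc
Acta1: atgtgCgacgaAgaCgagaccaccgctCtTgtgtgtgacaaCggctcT
Acta2: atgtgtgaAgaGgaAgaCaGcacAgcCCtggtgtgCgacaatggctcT
Actg2: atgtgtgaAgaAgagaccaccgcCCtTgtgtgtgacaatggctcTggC
Actb: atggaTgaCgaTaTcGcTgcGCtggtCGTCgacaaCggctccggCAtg
Actg1: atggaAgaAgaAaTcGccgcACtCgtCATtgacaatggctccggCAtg
In this stretch Acta1 and Actg2 each differed from Actc1 at 7 bases, Acta2 at 10, Actg1 at 13 and Actb at 15. Over the whole coding sequence, Actb and Actg1 were the closest of the 15 pairs, identical at 88.7% of aligned positions. Actc1 and Acta1, the sarcomeric pair, were identical at 86.2%, and the lowest identity, 81.5%, was that of Actg1 with Actc1 and with Acta2.

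Close copies elsewhere in the genome are a larger source of shared sequence than the family itself. Of all 50-base windows in the coding sequence of Actg1, 100% also occur in the transcript of another annotated gene, and the predicted gene Gm12715 alone holds 51.1% of the windows of the whole Actg1 transcript. For Tpm3 it was 70.0% of coding windows, and the copy Tpm3-rs7 held 62.4% of the windows of the whole transcript. For Tpm4 it was 36.0% of coding windows. Actb had 19.6%, Acta1 2.86% and Acta2 0.645%, while Actc1, Actg2, Tpm1 and Tpm2 had 0%. The sources used here do not give the read length or the treatment of reads that fit several genes. The levels of Actg1 and Tpm3, and less so those of Tpm4 and Actb, are therefore uncertain, and the part of shared reads in them was not tested. Exons of Actg1 also overlap Gm23419 and the microRNA gene Mir6935, listed with 14 to 31 reads per library, and those of Tpm4 overlap Gm26586.

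**Figure D1:**
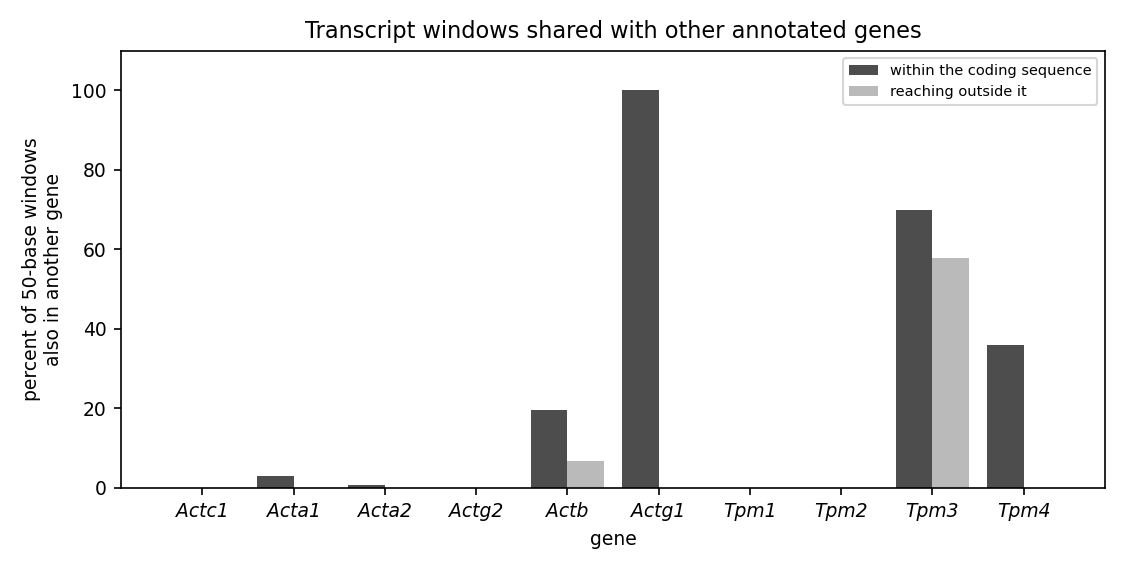
Share of the 50-base windows of each gene's transcript (percent, vertical axis) that also occur in a transcript of another annotated gene, for windows inside the coding sequence (dark) and reaching outside it (light). All coding windows of Actg1 and 70.0% of those of Tpm3 are shared, against 0% for Actc1 and Tpm1.

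Several actin genes are classic targets of serum response factor (SRF), which binds the CArG box. In the RefSeq promoter table for GRCm38.p6, 8 of the 10 genes had a promoter of 250 bases before to 50 after the start. Actb and Actg2 were without an entry. Both strands were read for a strict CArG box, a motif that reads alike on either strand, and it occurred in Actc1, Acta1 and Actg1, each with 1 match. Of all 32851 promoters listed, 1.63% had one. The 3 matches, which place a box close to the listed start of both sarcomeric actins, are given with 20 bases on either side and the box in capitals. They lie at chr2:114052893-114052942 (minus strand, 47 bases before the start of Actc1), chr8:123894819-123894868 (minus strand, 73 bases before Acta1) and chr11:120348556-120348605 (minus strand, 90 bases before Actg1). These starts are those of the RefSeq promoters and can differ from GENCODE M21. There the Actc1 gene spans 114047282 to 114053548, so its box lies inside the gene.
Actc1: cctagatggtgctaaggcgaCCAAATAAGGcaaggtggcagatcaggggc
Acta1: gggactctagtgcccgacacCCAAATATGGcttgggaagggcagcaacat
Actg1: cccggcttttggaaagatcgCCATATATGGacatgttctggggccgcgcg
A match is a description of the letters in this window, and SRF binding was not measured.

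The 6 libraries held between 3414257 and 7732674 recovered reads, the fewest in wildtype-labelled replicate 1. Wildtype-labelled replicate 3 was least like the rest (mean correlation with the others across genes 0.899, against 0.935 to 0.957), and its deviations followed GC content (r = 0.70 across genes). Libraries with the same replicate number in the 2 groups deviated together, least so for number 3 (correlations across genes 0.472, 0.443 and 0.186 for numbers 1, 2 and 3). Knockout-labelled replicate 3 did not share the GC trend of its wildtype-labelled counterpart (r = −0.16). Wildtype-labelled replicates 1, 2 and 3 had 10.3, 4.12 and 2.48 FPKM of Gas2l3 itself. For the knockout-labelled ones these were 4.03, 2.99 and 3.06. The groups overlapped, and a value per gene includes reads of any exon that remains, so it does not check the genotype. Directions below refer to the libraries as labelled. Heart muscle markers were high in every library, while the 16 skeletal muscle markers summed to 4.24 to 27.7 FPKM, with Myh4, Myod1, Myf5 and Pax7 listed at 0.

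Cardiac alpha-actin made up nearly all actin RNA of these hearts. Actc1 (chromosome 2, 114047282 to 114053548, mm10) had FPKM of 9699.6, 12273 and 16886 in the wildtype-labelled hearts, here and below in the order of replicates 1, 2 and 3. The knockout-labelled hearts had 9730.4, 8926 and 10109. It ranked 2nd of all genes by mean FPKM, with 50484 to 142806 reads per library. Wildtype-labelled replicates 2 and 3 lay above every knockout-labelled library, but replicate 1 did not, so the groups overlapped. Its share of the summed FPKM of the 6 actins was 90.7% ± 0.699 (SD, n = 3) in wildtype-labelled and 89.2% ± 1.01 in knockout-labelled hearts.

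Skeletal alpha-actin, the other sarcomeric isoform, was rare. Acta1 (chromosome 8, 123891769 to 123894751) had 22.1, 67.5 and 73.0 FPKM in wildtype-labelled hearts. Knockout-labelled hearts gave 28.7, 66.5 and 80.3. Both replicates 1 were low and the other 4 libraries lay within a narrow range, whatever their group. Acta1 supplied 0.365% ± 0.146 of actin FPKM in wildtype-labelled and 0.544% ± 0.241 in knockout-labelled hearts. On the log2 scale its ratio to Actc1 was −8.05 ± 0.657 and −7.48 ± 0.800, higher in the knockout-labelled library of each of the 3 pairs of replicate numbers (two-sided exact permutation p = 0.5). An exact sign-change test over these pairs gave p = 0.25, the smallest that 3 pairs allow.

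Among the smooth muscle isoforms, Acta2 was abundant and Actg2 scarce. Acta2 (chromosome 19, 34241090 to 34255590) had 317, 455 and 647 FPKM in wildtype-labelled hearts. Knockout-labelled hearts gave 297, 365 and 528, lower in each of the 3 pairs, with overlapping groups. Both replicates 1 were low and both replicates 3 high. The summed level of 12 smooth muscle and pericyte markers, none at 0, ran from 483 to 922 FPKM with the wildtype label and from 485 to 621 with the knockout label. Most of it was desmin (Des), also a heart muscle gene, at a wildtype-labelled mean of 433 ± 202 (SD, n = 3). The sum too was highest in replicate 3 of each group, and the part of those cells in the Acta2 values was not tested. In such whole-organ RNA, fewer cells of a type and less RNA per cell cannot be told apart. Actg2, the gamma-actin of gut and bladder smooth muscle, ran from 1.53 to 6.18 FPKM and rested on 12 to 56 reads per library. Acta2 and Actg2 together gave 3.29% ± 0.245 (SD, n = 3) of actin FPKM in wildtype-labelled and 3.70% ± 0.950 in knockout-labelled hearts.

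The cytoplasmic pair was led by beta-actin. Actb (chromosome 5, 142903115 to 142906754) had 486, 668 and 995 FPKM in wildtype-labelled hearts. The 3 knockout-labelled libraries lay close together, at 610.3, 590.2 and 595 FPKM, inside the wildtype-labelled range. Actg1 (chromosome 11, 120345690 to 120348542), cytoplasmic gamma-actin, had 76.3, 91.3 and 132 FPKM in wildtype-labelled hearts. Its knockout-labelled values were 101, 102 and 109 FPKM, again within the wildtype-labelled range. As levels, neither gene separated the groups.

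As a share of all actin FPKM, most of which is Actc1, Actg1 did separate them. Its share of actin FPKM was 0.719%, 0.673% and 0.704% in wildtype-labelled replicates 1, 2 and 3, and 0.941%, 1.01% and 0.952% in the knockout-labelled ones. Every knockout-labelled library lay above every wildtype-labelled one, with means of 0.699% ± 0.0235 and 0.969% ± 0.0392 (SD, n = 3). Among the 5 actins other than Actc1, however, its share was 8.44%, 7.11% and 7.12% against 9.75%, 9.04% and 8.25%, and the groups overlapped. The log2 ratio of Actg1 to Actb was −2.67, −2.87 and −2.92 in wildtype-labelled and −2.59, −2.53 and −2.45 in knockout-labelled libraries, a difference of 0.29. The exact permutation test gave p = 0.1 for the share and for the ratio, the smallest value that 3 against 3 libraries allow (two-sided, 0.5 after Benjamini-Hochberg adjustment over 15 shares and ratios). That test treats the libraries as independent. With libraries paired by replicate number, an exact sign-change test gave p = 0.25 for the share, the smallest that 3 pairs allow. The difference in share was between 0.248 and 0.284 percentage points with 1 library left out. It was 0.279 after trends on GC content and length were removed, with the groups still apart. Actg1 is also the member with the most shared coding sequence, as given above.

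The shares of the other single genes did not part the groups. Actb supplied 4.94% ± 0.365 (SD, n = 3) of actin FPKM in wildtype-labelled and 5.58% ± 0.340 in knockout-labelled hearts, and Acta2 3.27% ± 0.245 and 3.67% ± 0.930. The sarcomeric actins together made up 91.1% ± 0.592 and 89.7% ± 0.769. The 2 cytoplasmic actins together made up 5.30%, 5.60% and 6.02% in wildtype-labelled and 6.61%, 6.88% and 6.16% in knockout-labelled replicates 1, 2 and 3. That sum was higher in each knockout-labelled library than in any wildtype-labelled one. It has Actc1 in its denominator too and is given with no test. All 6 actins together were between 1.59% and 2.47% of the FPKM in a library.

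**Figure D2:**
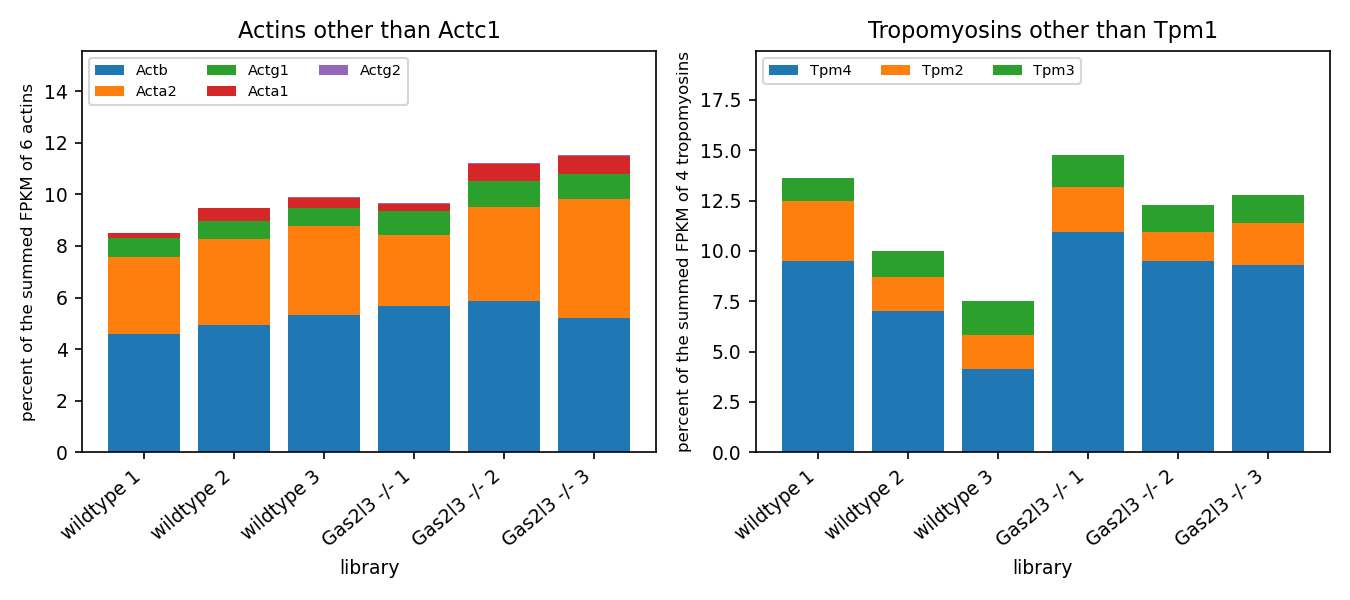
Share of each minor isoform in the summed FPKM of its family (percent, stacked bars from 0) in each of the 6 libraries, with Actc1 left out on the left and Tpm1 on the right; the part not drawn belongs to those genes. The Actg1 band is 0.941% to 1.01% in the knockout-labelled libraries and 0.673% to 0.719% in the wildtype-labelled ones, and the Tpm4 band is thinnest, 4.12%, in wildtype-labelled replicate 3.

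Tpm1, whose striated form is the main tropomyosin of heart muscle, was the leading gene of its family. Tpm1 (chromosome 9, 67022590 to 67049406) had 1445, 1994 and 1918 FPKM in wildtype-labelled hearts. Knockout-labelled hearts gave 1493, 1905 and 1819, within nearly the same range. As for Acta1, both replicates 1 were low and the other 4 libraries were alike. A value per gene adds the striated and cytoskeletal transcripts that Tpm1, Tpm2 and Tpm3 each make by splicing. Tpm1 held 89.6% ± 3.09 (SD, n = 3) of tropomyosin FPKM in wildtype-labelled and 86.7% ± 1.33 in knockout-labelled hearts, and was lower in the knockout-labelled library of each pair.

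Tpm4, a tropomyosin of the cytoskeleton, was the 2nd of the family and the only one of the 10 genes whose levels parted the groups. Tpm4 (chromosome 8, 72134975 to 72153142) had 159, 156 and 85.5 FPKM in wildtype-labelled hearts. Knockout-labelled hearts gave 191, 207 and 194. Each knockout-labelled value exceeded each wildtype-labelled one, and wildtype-labelled replicate 3 was far below the rest. Groups did not overlap in either direction for 9.76% of the 12121 genes tested, with the knockout-labelled libraries above for 5.02% and below for 4.74%, so 1 of 10 genes is near this background. In share of tropomyosin FPKM, Tpm4 was at 9.50%, 7.02% and 4.12% in wildtype-labelled and at 10.9%, 9.52% and 9.32% in knockout-labelled libraries. These shares overlapped (two-sided exact permutation p = 0.2), though the knockout-labelled library was higher in 3 of 3 pairs. An exact sign-change test over the pairs gave p = 0.25, the smallest it can give.

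Tpm2 and Tpm3, which encode the beta chain and the slow-muscle and cytoskeletal gamma chain, were minor. Tpm2 (chromosome 4, 43514711 to 43523765) ran from 30.4 to 49.9 FPKM and Tpm3 (chromosome 3, 90072649 to 90100902) from 19.3 to 34.9 FPKM. In both genes the range of the wildtype-labelled libraries, set by replicates 1 and 3, overlapped the knockout-labelled one. Tpm2 gave 2.12% ± 0.744 (SD, n = 3) of tropomyosin FPKM in wildtype-labelled and 1.89% ± 0.438 in knockout-labelled hearts. Tpm3 gave 1.36% ± 0.279 and 1.45% ± 0.135. Shares depend on the gene length the authors divided by, which was 3264 bases for Tpm1 and 2074 for Tpm4, against unions of exons of 6485 and 2203 bases in GENCODE M21. With the GENCODE lengths, the mean share over the 6 libraries moved from 8.40% to 14.2% for Tpm4, from 2.01% to 4.12% for Tpm2 and from 88.2% to 80.3% for Tpm1.

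Ordered by mean FPKM, the 10 genes ran Actc1, Tpm1, Actb, Acta2, Tpm4, Actg1, Acta1, Tpm2, Tpm3 and Actg2. Of the 9 neighbours in this order, 7 stood the same way round in all 6 libraries. No test is given, because libraries of the same replicate number deviated together, and an exact sign-change test over 3 such units cannot go below p = 0.25. Actc1 exceeded Tpm1 by 6.29-fold (4.69 to 8.80 over the libraries), Tpm1 exceeded Actb by 2.73-fold (1.93 to 3.23) and Actb exceeded Acta2 by 1.53-fold (1.13 to 2.05). Tpm4 was above Actg1 in 5 of 6 libraries and Acta1 above Tpm2 in 4 of 6, so these neighbours did not differ beyond their spread. Tpm2 exceeded Tpm3 by as little as 1.01-fold in 1 library. Folds between genes, and part of the order, depend on the lengths. With GENCODE lengths Actc1 was 10.7-fold above Tpm1, Tpm2 was 2.91-fold above Tpm3 and Tpm3 5.93-fold above Actg2, in place of 6.29-fold, 1.40-fold and 9.10-fold. Actb and Acta2 then changed places, with Acta2 higher in 5 of 6 libraries, and Actg1 was above Acta1 in 4 of 6 libraries in place of 6.

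**Figure D3:**
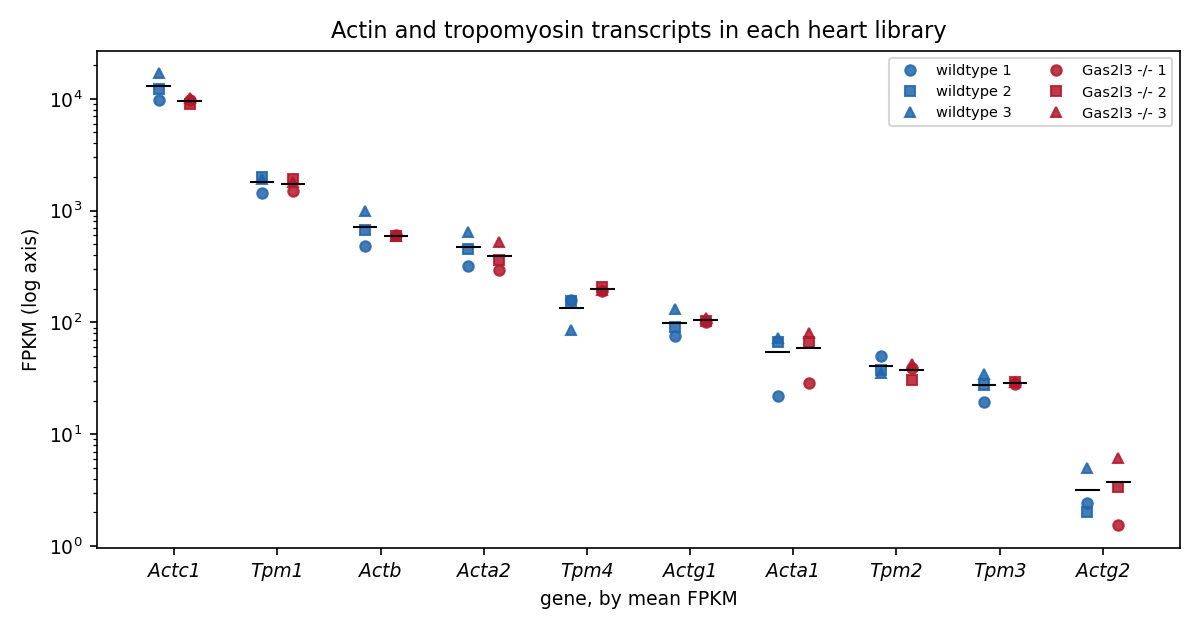
FPKM (log axis) of the 10 genes in order of their mean, with wildtype-labelled libraries in blue and knockout-labelled ones in red, a symbol for each replicate number and a black bar for the mean of 3. Actc1 lies between 8926 and 16886 FPKM, above Tpm1 in all 6 libraries, and Tpm4 is the gene whose red and blue points do not overlap.

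Replicate number, more than group, ordered several of these genes. Of the sum of squares of log2(FPKM + 0.5) over the 6 libraries, 97.5% lay between replicate numbers for Acta1, 96.9% for Tpm1 and 89.8% for Acta2, against 1.28%, 0.759% and 8.59% between groups. Over all 12121 tested genes the median was 52.7% between replicate numbers and 12.5% between groups. There are 3 replicate numbers and 2 groups, so noise alone would give the replicate numbers the larger part. Acta1 spanned 3.63-fold from its lowest to its highest library, and the scarce Actg2 4.03-fold. Actc1, with 34.3% between numbers and 41.2% between groups, and Tpm4, with 25.3% and 52.6%, were divided otherwise. Once GC and length trends were taken out, the part between replicate numbers was 67.7% for Acta1, 84.5% for Tpm1 and 83.1% for Acta2, and 12.3% for Tpm4. What the numbers stand for is not given in the labels, and both replicates 1 shared a trend with GC content (r = −0.47 and −0.48 across genes).

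**Figure D4:**
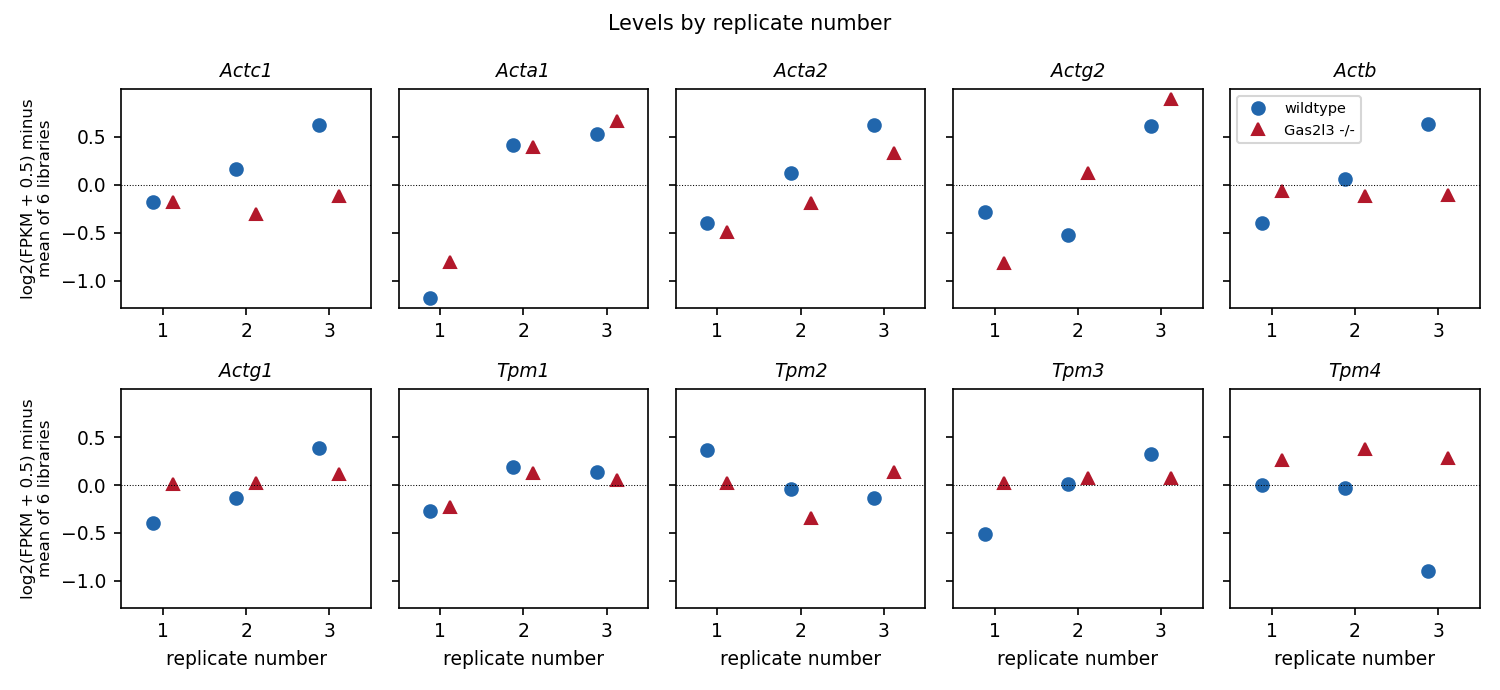
Level of each gene, as log2(FPKM + 0.5) minus its mean over the 6 libraries, by replicate number (horizontal axis), with wildtype-labelled libraries as circles and knockout-labelled ones as triangles. Circle and triangle lie close together at each number for Acta1 and Tpm1, and for Tpm4 the triangles lie above all circles.

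The comparison of Gas2l3 -/- with wildtype hearts asked whether any of these genes differs between the groups. None passed: limma called 0% of the 12121 genes at an adjusted p under 0.05, and 3.25% had an unadjusted p under 0.05, of which none was an actin or tropomyosin. Limma with voom weights on the recovered reads also called 0, with 375 genes at an unadjusted p under 0.05. Of the 10 genes, 5 had higher and 5 lower means, with a median log2 fold change of 0.032 beside −0.0089 for all tested genes. Tpm4 came nearest, with a log2 fold change of 0.62 (SE 0.34, 95% interval −0.15 to 1.39, limma adjusted p = 0.966). Actc1 was at −0.40 (interval −1.69 to 0.90) and Acta2 at −0.23 (−1.16 to 0.70). Actb was at −0.20 (−1.09 to 0.70), Acta1 at 0.16 (−1.08 to 1.40) and Actg1 at 0.097 (−0.60 to 0.79). Tpm1 was at −0.032 (−0.97 to 0.91), Tpm2 at −0.13 (−0.75 to 0.50), Tpm3 at 0.12 (−0.53 to 0.76) and Actg2 at 0.13 (−0.95 to 1.21). With 3 libraries in each group, differences of any size inside these intervals remain compatible with the data.

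Left-out libraries show which values rest on 1 library. Without wildtype-labelled replicate 3, Tpm4 was at 0.33, Actc1 at −0.19, Actb at 0.071 and Acta2 at 0.021. Without wildtype-labelled replicate 1, Acta1 was at −0.39 in place of 0.16, and without knockout-labelled replicate 3 it was at −0.13. With the replicate number as a block, Tpm4 had a limma adjusted p = 0.782. With GC and length trends removed it was at 0.46 (limma adjusted p = 0.626), and the groups again did not overlap. Its unadjusted limma p was 0.038 there, in a fit where 930 of 12121 genes were under 0.05. With the block as well, the unadjusted limma p of Tpm4 was 0.048 (adjusted 0.464), and 1299 genes were under 0.05. Tpm4, at 45.9% GC, has the lowest GC content of the 10 genes. In the authors' deposited table, Tpm4 has a log2 fold change of 0.44 (SE 0.26) and no p-value. The authors' deposited table calls 0.0735% of 12243 genes, none of them an actin or tropomyosin, and gives each of the other 9 an adjusted p of 0.998.

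**Figure D5:**
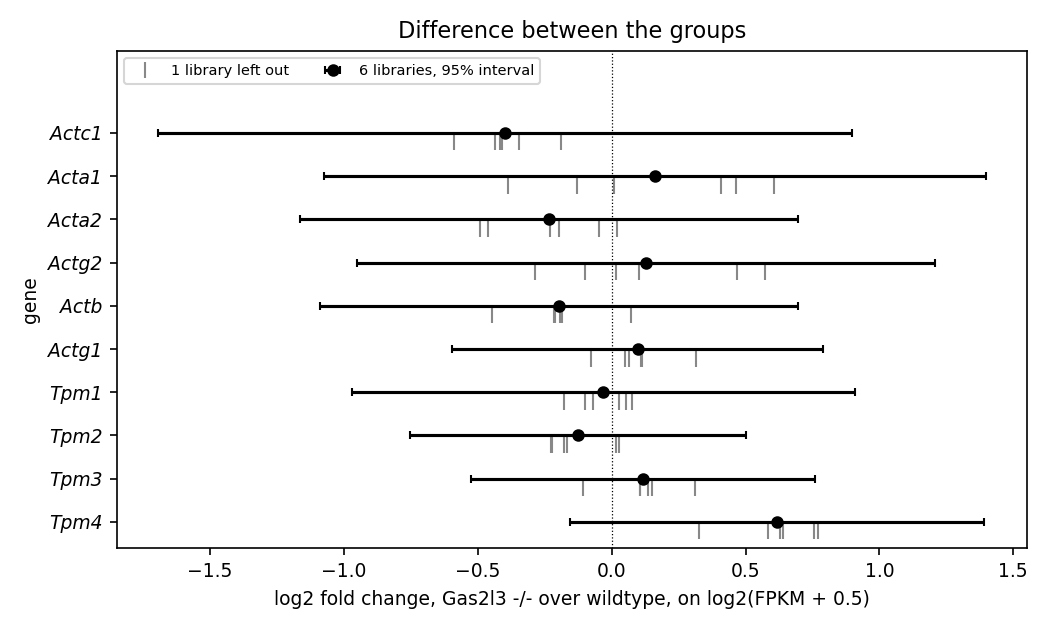
Log2 fold change of each gene, Gas2l3 -/- over wildtype, on the log2(FPKM + 0.5) scale, with the 95% interval from limma (black) and the values with 1 library left out (grey ticks). Each interval includes 0, and Tpm4 at 0.62 is the gene whose grey ticks, 0.33 to 0.77, all lie above 0.

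Other genes of the actin system, taken from lists chosen by function, also had no member that passed (0 called in each list by limma). Proteins that sit on the thin filament with actin and tropomyosin, the troponins, tropomodulins, leiomodins and nebulins, had lower means for 10 of 12 tested members (median −0.17). Troponin genes had the smallest p there: Tnnt3 at −1.14 (SE 0.41), a fast skeletal isoform at 2.62 ± 1.32 FPKM in wildtype-labelled hearts, Tnni1 at −0.94 (SE 0.58) and Tnni2 at −1.01 (SE 0.65). Tnni1 varied widely among wildtype-labelled hearts, with a mean of 4677 ± 3255 FPKM (SD, n = 3). Heart muscle markers had lower means for 11 of 12 genes in the same comparison (median −0.40). Their summed level was 32670, 40304 and 61326 FPKM in wildtype-labelled replicates 1, 2 and 3. Knockout-labelled replicates had 29062, 37996 and 31648 FPKM, so the groups overlapped, and the top of the range was wildtype-labelled replicate 3 alone. The part of these markers in the Actc1 and troponin values was not tested.

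SRF and its cofactors had lower means for 8 of 9 genes (median −0.27), among them Myocd, the heart and smooth muscle cofactor myocardin, at −0.38 (SE 0.25), Nkx2-5 at −0.83 (SE 0.53) and Elk1 at −0.39 (SE 0.32). Their summed level was 806 FPKM in wildtype-labelled replicate 3 and 292 to 422 FPKM in the other 5 libraries. Targets of SRF outside the 2 families had higher means for 13 of 20 genes (median 0.21), and for 4 of them the knockout-labelled hearts all lay above the wildtype-labelled ones, as they did for 5.02% of all 12121 genes. Csrp3, the muscle LIM protein, was at 0.69 (SE 0.44), Pdlim5 of the Z-disc at 0.48 (SE 0.31) and Tes, a focal adhesion protein, at 0.41 (SE 0.24). For all genes tested, 49.0% had higher means, so neither list's split is set against a test here.

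Genes that supply, nucleate and cap filaments were near an even split. Monomer binding and turnover genes, such as the profilins and cofilins, had higher means for 9 of 18 (median −0.013), with Pfn2 at 0.58 (SE 0.39), Gsn at −0.52 (SE 0.36) and Tmsb10 at −0.51 (SE 0.48). Nucleators, among them the Arp2/3 complex and the formins, had higher means for 8 of 20 (median −0.076). Wasf1 of the WAVE complex was at −0.61 (SE 0.23), with mean FPKM of 5.11 ± 0.455 and 3.19 ± 0.334 (wildtype-labelled first; SD, n = 3), the formin gene Diap2 at −0.39 (SE 0.28) and Arpc5 at 0.63 (SE 0.42). End-capping genes had higher means for 4 of 8 (median 0.20), with Capza1 at 0.60 (SE 0.40), Eps8 at 0.51 (SE 0.25) and Tmod3 at 0.51 (SE 0.32). Genes that fold or modify actin, namely chaperonin and prefoldin genes and the methyltransferase gene Setd3, had higher means for 9 of 15 (median 0.23), with Tcp1 at 0.51 (SE 0.39), Cct4 at 0.49 (SE 0.37) and Pfdn6 at −0.63 (SE 0.39).

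Markers of other cell types and of the atria were summed as well. Fibroblast markers summed to between 882 and 1739 FPKM in wildtype-labelled and between 1257 and 1487 in knockout-labelled libraries, with higher means for 8 of 10 (median 0.35). Endothelial markers summed to between 363 and 773 FPKM and between 522 and 618 (8 of 10 higher, median 0.15). Macrophage and blood markers summed to between 92.3 and 135 FPKM and between 133 and 196 (6 of 8 higher, median 0.32). None of these markers was at 0 in every library. Knockout-labelled libraries all lay above the wildtype-labelled ones for 2 fibroblast, 1 endothelial and 2 macrophage and blood markers. They all lay below for 0 in each list. Over all 12121 genes tested these parts were 5.02% and 4.74%, and 49.0% had higher means. These 3 sums overlapped between the groups. Atrial markers did not: their 8 genes summed to between 2059 and 5238 FPKM with the wildtype label and between 6494 and 8522 with the knockout label. Nppa, the atrial natriuretic peptide gene, had means of 1904 and 5703 FPKM in them and was the largest part of the knockout-labelled sums. The next in level, Myl4 and Myl7, had lower means, 1326 after 1430 and 435 after 683 FPKM. Of the 8 genes, 4 had higher and 4 lower means, so the sums do not speak for the list as a whole. The part of these cells in the Tpm4 and Actg1 values was not tested.

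The genes closest in profile to each member were found by the root mean square difference of centred log2(FPKM + 0.5) over the 6 libraries, among 11630 genes. Tpm4 was closest to Pgk1, a glycolytic enzyme (0.040, where the median gene differed by 0.53), then Sar1a and Slc10a7. Tpm1 was closest to Hadh, an enzyme of fatty acid oxidation (0.037), then Rilpl1 and Bphl. The wide swing of Acta1 had no close match, the nearest being Fmod (0.26), Psme2b and the atrial light chain gene Myl4 (0.27). Actg2 was nearest to Tagln, a smooth muscle marker (0.18), and Acta2 to Fam20a (0.081). Actc1 was nearest to Zfp282 (0.037), Actb to Gatad2a (0.035), Actg1 to St3gal2 (0.044), Tpm2 to Gnaq (0.047) and Tpm3 to Creld2 (0.038). Such profiles share each library's depth and base composition.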

How the data were processed

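The authors deposited an FPKM table and their own comparison of the groups (log2 fold changes, p-values), per the file headers. Tools named by the submitters' processing notes are DESeq2 and FastQC, with build mm10. Aligner, counter, strand setting and annotation: not given in the sources used here. Whole reads, size factors and gene lengths were recovered from both tables: 100% of 94235 values above 0 came out whole (tolerance 0.01). Recovered totals of 3414257 to 7732674 reads per library leave little counting error except for Actg2. PCR copies cannot be told from molecules.

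The main test was limma 3.58.1 (R 4.3.3, intensity trend) on log2(FPKM + 0.5) for genes at 1 FPKM or more in at least 3 libraries, two-sided, Benjamini-Hochberg adjusted and called under 0.05; fold changes understate low genes. It was run on simulated reads without GC, length or replicate-number effects, so that run does not show how it performs with the trends seen here. All 10 members passed the filter. Shares and ratios were compared by exact permutation, with exact sign changes over pairs of replicate numbers as an alternative. Members and lists were chosen with earlier results of these data known. Named genes were the members, the 3 genes of smallest p in each pathway list, and nearest profiles; predicted genes were left out of profiles. Libraries of the same replicate number were treated as pairs because their deviations from group means correlated at 0.472, 0.443 and 0.186 across genes; the pairing comes from the data. GC content came from GENCODE M21 (GRCm38) for 96.6% of tested genes, and trends were removed by loess. Coordinates are 1-based, from GENCODE M21. Older symbols were matched through RefSeq's gene table.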

Additional observations from a re-analysis of the deposited data

How the results depend on the processing

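With 26 results under their alternatives, 288 of 315 values were kept. For fold changes, kept means the same direction and side of the threshold. For shares and ratios it means direction only, and for the count of called genes an equal count. The replicate block and the other filters on low values repeat the main fold change, and the block repeats differences in shares and ratios. Their directions were therefore kept by construction, and the count of 288 includes them. Limma called 0 genes in every setting except the removal of GC and length trends, where it called 1, Ppp1r1b. With the replicate block the count of called genes was 0, and also 0 with the block and trends removed, so the block ended the call of Ppp1r1b. The block leaves each log2 fold change as it was (Tpm4 0.62, Actc1 −0.40), and with it genes at an unadjusted p under 0.05 went from 394 to 729. With trends removed as well, Tpm4 was at 0.46. Other reversals, all of values that were not called, were Actb under quantile normalization (0.014), Tpm1 with a common FPKM total (0.15) and quantile normalization (0.28), and Tpm2 with a common total (0.051), with trends removed (0.051) and with the replicate block and trends removed (0.051). The log2 ratio of Tpm2 to Tpm1 was 0.14 with trends removed, and Actc1, counted as kept, was at 0 under quantile normalization. A common total moved the median of all genes to 0.15, so Tpm1 and Tpm2 lie at or below it there.

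With 1 library left out, log2 fold changes ran from −0.39 to 0.61 for Acta1, −0.49 to 0.021 for Acta2, −0.29 to 0.57 for Actg2, −0.45 to 0.071 for Actb, −0.077 to 0.32 for Actg1, −0.18 to 0.074 for Tpm1, −0.23 to 0.026 for Tpm2 and −0.11 to 0.31 for Tpm3. Differences in share ran from −0.071 to 0.859 percentage points for Acta2, −0.448 to 0.196 for Tpm2 and −0.0168 to 0.246 for Tpm3, and the log2 ratio of Tpm2 to Tpm1 from −0.25 to 0.20. The cause was not tested. Tpm4 and Actc1 kept their direction in these fits. Lengths from GENCODE, chosen after seeing the data, reversed no difference in share between the groups, but they turned the order of Actb and Acta2. Actg2 was not tested where a mean of 5 FPKM was required, and its 12 to 56 reads limit its precision.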
